A study of Mus musculus with 4 samples.

Results

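A set of 10 genes was followed through the single-cell data, chosen by name for their part in the basement membrane of vessels or in the change of liver sinusoids towards ordinary capillaries. They were Col4a1, Col4a2, Lama4, Lamb1, Nid1, Sparc, Col13a1, Cd34, Plvap and Cldn5, and all 10 were found among the 54456 gene symbols of the deposited matrices. The study compared non-parenchymal liver cells of mice under high fat diet (HFD) and exercise interventions. It used droplet-based 3′ RNA sequencing (10x Genomics), which tags each captured transcript with a unique molecular identifier (UMI). Its groups, named S, E, HFD_sed and HFD_EXE, had 1 library each. All groups shared the C57BL/6J strain, the liver as tissue and an age of 30 weeks; the labels do not spell out S, E, sed or EXE, and they give no length of diet or training and no number of animals per library. E was not analysed here, so all values are from the other 3 libraries.

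Liver sinusoidal endothelial cells (LSECs) line the hepatic sinusoids with open pores and, unlike other endothelium, lie on a sparse matrix with no continuous basement membrane. A basement membrane is a sheet of laminin and type IV collagen networks joined by nidogens and the proteoglycan perlecan. In liver injury LSECs can lose their pores and lay down such a sheet, a change named capillarisation, for which CD34, PLVAP and laminins are often used as markers.

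For each gene the UMIs of a cell class were summed per library and divided by all UMIs of that class and multiplied by 1000000, giving CPM. The matrices held 11280 to 11752 barcodes each, of which 10212 cells of S, 10740 of HFD_sed and 10172 of HFD_EXE were kept, with 57099173 to 76875425 UMIs per library. With 1 library per group no difference between groups could be tested or checked against replicates, and the exact 95% intervals given cover counting error only. A member was called higher or lower where its ratio between 2 libraries was at least 1.5-fold and the pair held 20 or more of its UMIs in that class between them. The LSEC class held 3851, 2417 and 5043 cells of S, HFD_sed and HFD_EXE, and a small class named vascular endothelium held 100, 161 and 212. Classes were rebuilt by clustering and named from markers, with no annotation by the authors. Cells clustered largely by library: most LSECs of HFD_sed formed a cluster of their own, so an effect of the single library cannot be told apart from that of its group.

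The 2 endothelial classes were described by their markers. The same lists named the classes, so raised vascular markers in the vascular class were built in and are no independent check. In the vascular class 14, 14 and 15 of 15 vascular markers stood above their LSEC level in S, HFD_sed and HFD_EXE, among them Vwf, at 823 CPM against 2.43 CPM in S. The summed level of 12 LSEC markers was nevertheless 53.5%, 63.9% and 70.4% of that in LSECs, so the vascular class was not free of sinusoidal signal. The sum leans on Ptprb, which stood above its LSEC level in each library and gave 6438 of the 13879 CPM in S. The other markers of the list ranged from 15.1% (Lyve1) to 55.1% (Gpr182) in S. Their range was 21.8% (Stab2) to 109% (Stab1) in HFD_sed and 20.6% (Lyve1) to 76.7% (Stab1) in HFD_EXE. When cells were sorted by which of the marker lists they detected more of, only 36, 13 and 19 cells came out as vascular. Values of the vascular class are therefore given beside those of LSECs as a weaker description.

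Promoter sequences were taken for the genes whose position or values call for them. RefSeq promoter entries (build GRCm38.p6) existed for 8 of the 10 genes and not for Lama4 and Plvap. Col4a1 and Col4a2, which encode the α1 and α2 chains of the type IV collagen molecule, are transcribed in opposite directions from chromosome 8, and the starts used by their entries lie 21 bases apart. A stretch of 30 bases that ends a few bases before the Col4a2 start, and lies past the Col4a1 start and so outside the bases before it, is shown from the plus strand at chr8:11312771-11312800, with a CCAAT box in capitals.
Col4a2: ccCCAATttgttggcgctgccccctcccct
The 250 bases before the starts of Col13a1, Cd34 and Cldn5, the members that were lower in HFD_sed than in S in both endothelial classes, are shown next, at chr10:61979109-61979358 (minus strand), chr1:194938571-194938820 (plus strand) and chr16:18776597-18776846 (plus strand). Capitals mark matches to any of 5 motifs searched on both strands.
Col13a1: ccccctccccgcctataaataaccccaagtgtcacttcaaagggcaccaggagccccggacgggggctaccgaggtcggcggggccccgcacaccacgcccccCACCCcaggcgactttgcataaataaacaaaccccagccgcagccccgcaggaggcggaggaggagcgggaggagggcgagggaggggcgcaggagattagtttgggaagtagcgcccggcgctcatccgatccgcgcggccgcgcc
Cd34: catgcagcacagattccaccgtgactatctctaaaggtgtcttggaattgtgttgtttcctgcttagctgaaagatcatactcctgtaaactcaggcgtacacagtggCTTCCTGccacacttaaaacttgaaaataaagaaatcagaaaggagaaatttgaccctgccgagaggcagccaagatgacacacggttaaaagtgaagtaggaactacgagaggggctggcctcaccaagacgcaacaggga
Cldn5: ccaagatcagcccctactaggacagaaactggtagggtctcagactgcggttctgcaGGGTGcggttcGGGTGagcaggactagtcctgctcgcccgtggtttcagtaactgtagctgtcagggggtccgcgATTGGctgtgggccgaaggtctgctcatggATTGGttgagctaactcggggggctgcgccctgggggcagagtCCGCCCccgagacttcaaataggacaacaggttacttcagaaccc

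The CCAAT box (letters CCAAT) was found in the 250 bases of 5 of the 8 members and in those of 33.8% of 32851 promoters. The GC box, searched as GGGCGG, was found in 4 members and in 32.7% of all promoters. The letters of a KLF site, CACCC, occurred in 6 members and in 52% of promoters. An ETS site, searched as CAGGAAG, occurred in Cd34 alone of the 8, against 10.8% of promoters. A GATA site, searched as AGATAA, occurred in no member and in 9.99% of promoters. No motif is contained in another. Among the 3 printed sequences no motif was common to all, since Col13a1 held 1 KLF match, Cd34 1 ETS match, and Cldn5 2 CCAAT, 1 GC and 2 KLF matches. A match describes the letters and not a bound site.

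Most members were endothelial genes in this liver suspension. Between 86.8% and 92.0% of all UMIs of Col4a1, Col4a2, Lama4, Nid1, Sparc, Col13a1 and Cldn5 lay in the 2 endothelial classes in each library. For Plvap the share was 75.8% in S, 89.4% in HFD_sed and 87.5% in HFD_EXE. Cd34, at 41.7%, 26.0% and 55.9%, had a large share of its UMIs elsewhere. Such shares also depend on how many cells each class had. LSECs were 37.7%, 22.5% and 49.6% of the kept cells of S, HFD_sed and HFD_EXE, and the Cd34 share moved with them. They held 30054900 of 76875425 UMIs in S, 14746352 of 59432022 in HFD_sed and 31246944 of 57099173 in HFD_EXE. Lamb1 had 3.82% in endothelium in S and 15.4% in HFD_EXE, and 3 of its 12 UMIs in HFD_sed.

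**Figure D1:**
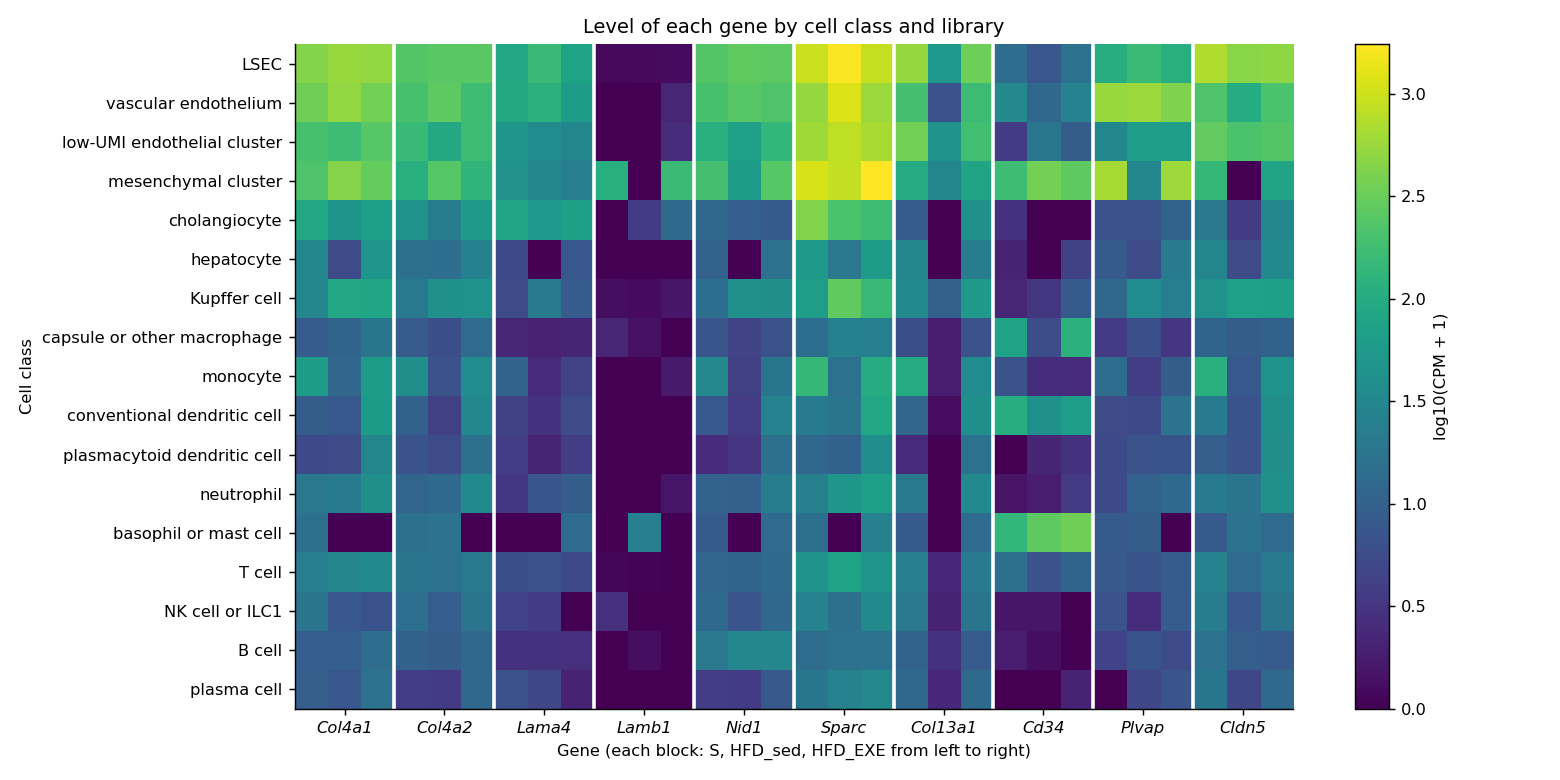
Level of each gene (columns, with S, HFD_sed and HFD_EXE side by side) in each cell class (lines), as log10(CPM + 1) on the colour scale; 1 library per group. Most genes are bright in the endothelial classes at the top, while Lamb1 is seen mainly in the mesenchymal cluster and Cd34 also in dendritic cells and basophils or mast cells; the mesenchymal cluster held 65, 6 and 23 cells.

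The type IV collagen chains stood at similar levels in LSECs of the 3 libraries. Col4a1 had 441 CPM in S (interval 434 to 449), 551 in HFD_sed (539 to 563) and 522 in HFD_EXE (514 to 530). Col4a2 had 240 CPM in S (234 to 245), 256 in HFD_sed (248 to 265) and 255 in HFD_EXE (249 to 261). In CPM S was the lowest library for both chains, and for both its interval lay apart from those of the others. No ratio reached 1.5-fold. HFD_sed over S was 1.25 (1.21 to 1.28) for Col4a1 and 1.07 (1.03 to 1.11) for Col4a2. With cells thinned to an equal number of UMIs, Col4a2 was instead detected least in HFD_sed (34.4% of LSECs, against 37.2% in S and 38.9% in HFD_EXE). The intervals of S and HFD_sed overlapped there. Col4a1 was still detected least in S (56.3%, against 57.8% in HFD_sed and 60.5% in HFD_EXE). Over the alternative settings the log2 ratio of Col4a2 for HFD_sed over S ranged from -0.02 to 0.24.

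The products of Col4a1 and Col4a2 join in 1 collagen molecule. The ratio of their UMIs was 1.84 (1.79 to 1.89) in LSECs of S, 2.15 (2.07 to 2.23) in HFD_sed and 2.05 (1.99 to 2.10) in HFD_EXE. The intervals of S lay below those of both other libraries, by less than the 1.5-fold used for calls. In the vascular class the ratios were 1.74 (1.44 to 2.12), 1.88 (1.65 to 2.15) and 2.08 (1.80 to 2.40), with intervals that overlapped.

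Laminins are built of an α, a β and a γ chain. Lama4, the α4 chain typical of vessel walls, had 86.3 CPM in LSECs of S (83.0 to 89.7), 159 in HFD_sed (152 to 165) and 75.7 in HFD_EXE (72.6 to 78.8). HFD_sed stood apart above both other libraries. Its level over S was 1.84-fold (1.74 to 1.94) and that of HFD_EXE over HFD_sed 0.477-fold (0.450 to 0.505).

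Lamb1, the β1 chain, was barely detected in LSECs, with 5 UMIs in S, 3 in HFD_sed and 8 in HFD_EXE, or 0.166, 0.203 and 0.256 CPM. The gene was countable in this assay, since the mesenchymal cluster had 110 CPM in S (90.6 to 132) and 162 CPM in HFD_EXE (116 to 218). The best match of that cluster was to mesothelial cells, with 7 mesothelial markers raised and Upk3b and Msln among its leading genes. The marker rule left it unnamed because those leading genes held 3 stellate against 2 mesothelial markers. In HFD_sed that cluster had only 6 cells and no Lamb1 UMI, and 0 UMIs allowed up to 111 CPM at the upper interval bound. Lamb1 could therefore not be compared between the libraries in endothelium. Another β chain gene, Lamb2, had 63.2 CPM in LSECs of S, 34.9 in HFD_sed and 42.3 in HFD_EXE.

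Nid1 encodes nidogen 1, which links laminin to type IV collagen. Its LSEC level was 234 CPM in S (228 to 239), 285 in HFD_sed (276 to 294) and 264 in HFD_EXE (258 to 270). The 3 intervals did not overlap, yet the highest ratio was only 1.22 (1.17 to 1.27), for HFD_sed over S.

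Sparc encodes a secreted matricellular protein that binds collagen. In LSECs it had 973 CPM in S (962 to 984), 1672 in HFD_sed (1651 to 1693) and 916 in HFD_EXE (906 to 927). HFD_sed was again the library that stood apart. The ratio of HFD_sed over S was 1.72 (1.69 to 1.75), that of HFD_EXE over HFD_sed 0.548 (0.539 to 0.557), and HFD_EXE lay at 0.941 (0.926 to 0.957) of S.

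Col13a1, which encodes a collagen that spans the cell membrane, differed most. It had 539 CPM in LSECs of S (531 to 548), 53.3 in HFD_sed (49.6 to 57.2) and 335 in HFD_EXE (329 to 342). Its level in HFD_sed was 0.0988 of that in S (0.0919 to 0.106), a difference of -3.34 on the log2 scale. HFD_EXE was 6.29-fold higher than HFD_sed (5.85 to 6.77) and still below S, at 0.621 (0.606 to 0.637).

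Cd34, a surface sialomucin of capillary endothelium and blood progenitors, had 13.5 CPM in LSECs of S (12.3 to 14.9), 6.58 in HFD_sed (5.33 to 8.02) and 15.8 in HFD_EXE (14.4 to 17.2). Here HFD_sed was the lowest library. HFD_sed had 0.486 of the level of S (0.385 to 0.608), from 97 and 407 UMIs, and HFD_EXE was 2.40-fold above HFD_sed (1.93 to 3.01). Among LSECs that had a Kit UMI the log2 ratio of HFD_sed over S was -0.50 in place of -1.04, short of the 1.5-fold, and among those with none it was -2.29, from 5.82 CPM in HFD_sed and 28.5 CPM in S.

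Plvap encodes the protein of the diaphragms that close endothelial pores and caveolae. Its LSEC level was 105 CPM in S (101 to 109), 162 in HFD_sed (155 to 168) and 110 in HFD_EXE (107 to 114). HFD_sed was higher than both others. The ratio of HFD_sed over S, 1.54 (1.46 to 1.63), only just passed the fold used, and its log2 value of 0.62 dropped below it with clustering at resolution 2.0 (0.45), with 2 other library scalings (0.52 and 0.54) and with the mean of per-cell levels (0.47). HFD_EXE over HFD_sed, at 0.681 (0.646 to 0.718), lay just short of the fold. It stayed short in 11 of 17 alternatives, and its log2 ratio ranged from -1.07 to -0.295. Of the 17, the 2 changes of the UMI minimum could not alter it.

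Cldn5 encodes claudin 5, a tight junction protein of endothelium. It had 720 CPM in LSECs of S (710 to 729), 466 in HFD_sed (455 to 477) and 485 in HFD_EXE (478 to 493). Both HFD libraries lay below S, and by similar amounts. The ratio of HFD_sed over S was 0.647 (0.630 to 0.665) and counted as lower, while that of HFD_EXE over S was 0.674 (0.660 to 0.688), just short of it. At resolution 2.0 the log2 ratios were -0.56 and -0.59, which exchanged the calls, so this threshold does not separate them.

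**Figure D2:**
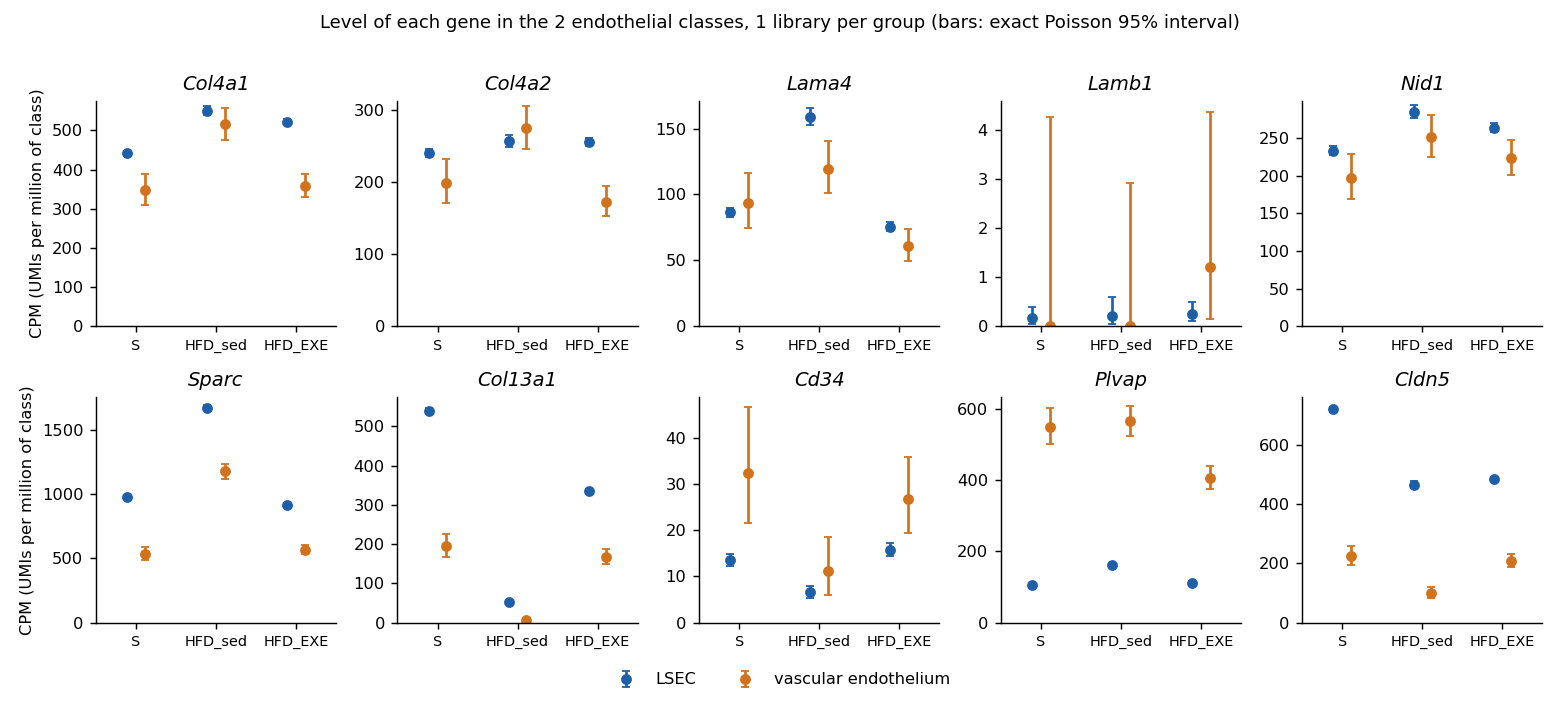
Level of each gene in CPM (vertical axes, from 0) in LSECs (blue) and vascular endothelium (orange) of S, HFD_sed and HFD_EXE; points are single libraries and bars exact Poisson 95% intervals. In LSECs Lama4, Sparc and Plvap peak in HFD_sed (159, 1672 and 162 CPM), while Col13a1 and Cd34 have their lowest value there (53.3 and 6.58 CPM).

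Of the 9 members with enough UMIs in LSECs, HFD_sed over S gave 3 that were higher (Lama4, Sparc, Plvap) and 3 that were lower (Col13a1, Cd34, Cldn5). Over all 14888 genes that met the same minimum, 16.3% were at least 1.5-fold higher and 12.3% lower, and over the 4050 genes that reached 50 CPM in either library, as 8 of the members did, 10.2% and 7.33%. The median log2 ratio was 0.29 for the members and 0.07 for all genes. The members did not lean to 1 side. Lama4, Sparc and Plvap were above S, the type IV collagen chains and Nid1 were within 1.5-fold of it, and Cd34, often read as a capillary marker, was below. Markers of other cells were also present in LSECs: the summed level of 10 Kupffer cell markers was 859, 495 and 486 CPM in S, HFD_sed and HFD_EXE, that of 12 hepatocyte markers 1193, 673 and 777, that of 12 stellate cell markers 132, 148 and 138, and that of 10 T cell markers 13.1, 62.7 and 18.8. None of these markers was at 0, and their part in the ratios was not tested.

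For HFD_EXE over HFD_sed, which shares the HFD_sed library with the first comparison, 2 of 9 members were higher (Col13a1 and Cd34; 11.5% of 14941 genes, and 8.69% of those that reached 50 CPM) and 2 were lower (Lama4 and Sparc; 14.2% and 6.63%). The median log2 ratio of the members was -0.08, against -0.06 for all genes. Because a high value in the shared HFD_sed library raises one ratio and lowers the other, the opposite signs carry no information of their own.

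HFD_EXE over S, which shares a library with each of the other comparisons, gave 0 members that were higher (11.5% of 15431 genes, and 6.72% of those that reached 50 CPM) and 1 that was lower, Col13a1 (11% and 3.61%). The median log2 ratios were 0.07 and 0.02. Lama4, Sparc, Plvap, Col4a2, Nid1 and Cd34 of HFD_EXE lay between 0.877 and 1.17 of their level in S.

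**Figure D3:**
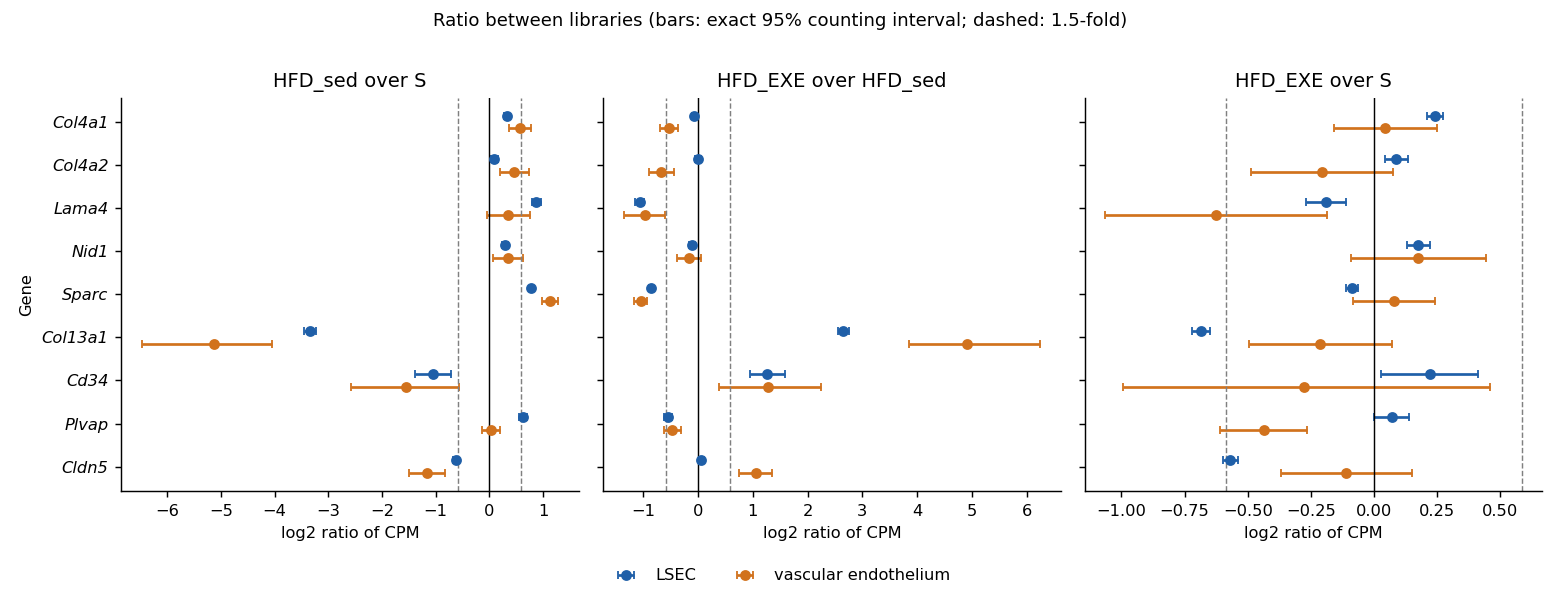
Log2 ratio of CPM between 2 libraries (horizontal axes, each panel on its own scale) for 9 genes in LSECs (blue) and vascular endothelium (orange); bars are exact 95% counting intervals and dashed lines mark 1.5-fold. The ratio of Col13a1 is -3.34 in LSECs for HFD_sed over S, whereas all LSEC ratios of HFD_EXE over S lie between -0.69 and 0.24.

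Only 1 LSEC cluster held over 100 cells of 2 libraries, 838 of HFD_EXE and 232 of HFD_sed, and it had the lowest median depth of the 6 LSEC clusters, 2401 UMIs per cell. Within it Col13a1 had 328 CPM in HFD_EXE and 54.1 in HFD_sed, and Lama4 88.9 and 176 CPM. Sparc had 686 and 850 CPM there, a smaller gap than over the class. Plvap had 137 and 92.5 CPM, in the opposite order to the class as a whole, and so had Cd34, at 8.94 and 13.5 CPM, from only 20 and 6 UMIs. The cluster that held 2160 LSECs of HFD_sed also took in 64 of HFD_EXE. Those 64 cells had 163 CPM of Lama4 (126 to 207) and 131 CPM of Col13a1 (97.9 to 171), against 159 and 52.5 CPM in the HFD_sed cells of that cluster. Their Cd34 level, 76.4 CPM (51.9 to 108) from 31 UMIs, was above that of both libraries' LSECs as a whole.

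In the vascular class Sparc was the 1 member of 9 that was higher in HFD_sed than in S (17.8% of 9210 genes were, and 13.8% of those that reached 50 CPM), at 1175 against 536 CPM, or 2.19-fold (1.97 to 2.44). Col13a1, Cd34 and Cldn5 were lower (10.7% and 8.68%). Col13a1 had 7 UMIs in HFD_sed and 168 in S, or 5.55 and 194 CPM. Cldn5 had 101 and 225 CPM and Cd34 11.1 and 32.4 CPM, the latter from 14 and 28 UMIs. Col4a1, at 516 against 347 CPM, lay just short of the fold at 1.49 (1.29 to 1.71). When the class was taken by the marker gate in place of clusters, Cldn5 and Cd34 turned direction (log2 ratios 1.57 and 0.70) and Sparc was no longer called (0.19), on the 36 and 13 cells that this left.

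HFD_EXE over HFD_sed in the vascular class had 3 members higher, Col13a1, Cd34 and Cldn5 (10.0% of 9832 genes, and 9.65% of those that reached 50 CPM), and 3 lower, Col4a2, Lama4 and Sparc (16.2% and 9.53%). Lama4 had 60.7 CPM in HFD_EXE and 120 in HFD_sed, a ratio of 0.507 (0.390 to 0.657) that came to -0.34 and -0.40 on the log2 scale at resolutions 0.5 and 2.0, in place of -0.98. Cldn5, at 209 and 101 CPM, was 2.07-fold higher (1.69 to 2.56), but its log2 ratio was only 0.41 at resolution 2.0 in place of 1.05. For Col4a2, at 0.629 (0.535 to 0.738), both other scalings ended the call (-0.57 and -0.56 in place of -0.67).

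HFD_EXE over S in the vascular class had 0 members higher (12.4% of 9294 genes, and 10.6% of those that reached 50 CPM) and 1 lower, Lama4 (12.1% and 7.58%), at 0.648 (0.478 to 0.879). Its log2 ratio was -0.63, and the call was lost under 5 of 11 alternatives, with -0.05 at resolution 2.0. Among the 11 is the setting with no minimum of UMIs, which could not alter the ratio.

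The vascular class differed from LSECs of the same library in several members. Plvap was 5.24-fold higher there in S (4.75 to 5.77), 3.49-fold in HFD_sed (3.20 to 3.80) and 3.69-fold in HFD_EXE (3.39 to 4.01). Cd34 was 2.39-fold higher in S (1.57 to 3.51), 1.69-fold in HFD_sed (0.889 to 2.97) and 1.69-fold in HFD_EXE (1.21 to 2.31), so its interval held 1 in HFD_sed. Cldn5 was lower in the vascular class in all 3 libraries, at 0.313, 0.216 and 0.430 of the LSEC level, as was Sparc at 0.551, 0.702 and 0.619. Col13a1 was also lower, at 0.360, 0.104 and 0.50. Nid1 was closer to the LSEC level, at 0.847, 0.884 and 0.846. The 2 classes came from 1 library each time, and cells are not replicates, so these ratios describe the libraries.

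LSECs were also split by the presence of a Kit UMI, since the receptor gene Kit is known to be higher in LSECs towards the central vein. A Kit UMI was found in 3039 of 3851 LSECs of S, 816 of 2417 of HFD_sed and 3982 of 5043 of HFD_EXE. Cells with one were deeper, with median UMIs of 7509 against 5096 in S, 6387 against 5218 in HFD_sed and 6113 against 4738 in HFD_EXE. As a check of the split, Rspo3, a central vein gene, was 5.69-fold, 2.32-fold and 2.76-fold higher in the cells with a Kit UMI. Efnb2, a gene of the portal side, was at 0.566, 0.694 and 0.617. Wnt2 was at 2.04, 1.57 and 1.94, Msr1 at 0.442, 0.531 and 0.470, and Ltbp4 at 0.655, 0.834 and 0.681. Thbd was at 1.67 in S and 1.30 in HFD_EXE, but at 0.964 (0.863 to 1.08) in HFD_sed. Each of these genes had its ratio nearest to 1 in HFD_sed, so the split was weakest there.

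Col4a1 was higher in LSECs with a Kit UMI in each library, by 1.22-fold in S, 1.21-fold in HFD_sed and 1.14-fold in HFD_EXE, and Col4a2 by 1.24-fold, 1.26-fold and 1.12-fold. Sparc followed with 1.10-fold, 1.13-fold and 1.10-fold. These differences were small, but their intervals excluded 1 each time.

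Lama4 and Cd34 went the other way in 2 of the libraries. Lama4 had 80.4 CPM in cells with a Kit UMI and 120 CPM in those without in S, a ratio of 0.669 (0.609 to 0.737), and 68.8 and 110 CPM in HFD_EXE, a ratio of 0.623 (0.567 to 0.686). In HFD_sed both kinds of cell had nearly the same level, 158 and 159 CPM, with a ratio of 0.992 (0.912 to 1.08). Cd34 was at 0.384 (0.310 to 0.477) in S and 0.405 (0.335 to 0.492) in HFD_EXE, and at 1.33 (0.872 to 2.02) in HFD_sed.

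Plvap was higher with a Kit UMI by 1.51-fold (1.34 to 1.69) in S and 1.58-fold (1.42 to 1.76) in HFD_EXE, but only by 1.10-fold (1.01 to 1.19) in HFD_sed. The lower share of cells with a Kit UMI in HFD_sed moved with these values, and its part in the class-wide ratios was not tested apart from 2 recounts. Among LSECs with no Kit UMI the log2 ratio of HFD_sed over S was 0.41 for Lama4 in place of 0.88 and -0.48 for Cldn5 in place of -0.63, which ended both calls. It was 1.09 for Plvap in place of 0.62, and -2.29 for Cd34 in place of -1.04. In the same cells the calls of Lama4 for HFD_EXE over HFD_sed (-0.53) and of Col13a1 for HFD_EXE over S (-0.57) also ended. Plvap passed the fold there for HFD_EXE over HFD_sed, at 74.2 against 156 CPM, where it had no call over the class. The ratios of Col13a1 and Sparc for HFD_sed over S kept their calls in both kinds of cell.

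**Figure D4:**
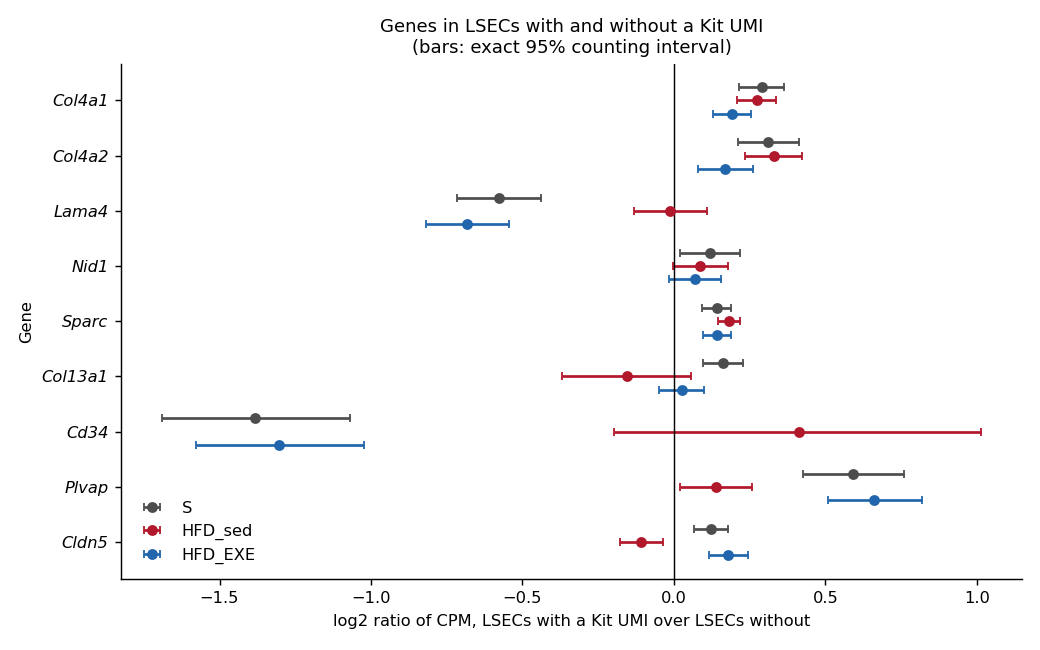
Log2 ratio of CPM between LSECs with and without a Kit UMI (horizontal axis) for 9 genes in S (grey), HFD_sed (red) and HFD_EXE (blue); bars are exact 95% counting intervals. Lama4 and Cd34 lie below 0 in S and HFD_EXE (Cd34 at -1.38 and -1.30) and near or above 0 in HFD_sed (Lama4 at -0.01, Cd34 at 0.41).

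For Col13a1 and Lama4 the shares of cells with a UMI had the same order over the libraries as the levels. With each cell thinned to 2000 UMIs, which left out 186, 147 and 280 LSECs, Col13a1 was detected in 62.2% of LSECs of S, 10.1% of HFD_sed and 46.6% of HFD_EXE (89.7%, 22.1% and 74.8% before thinning). Lama4 was detected in 14.1%, 26.9% and 13.4% (40.2%, 53.7% and 31.9% before). In B cells, which should lack both genes, 2.80%, 0.456% and 1.33% of thinned cells had a Col13a1 UMI and 0.312%, 0.342% and 0.443% a Lama4 UMI; thinning left out 20, 108 and 28 B cells. Median depths were 6977, 5542 and 5823 UMIs in LSECs and 3616, 2839 and 3386 in B cells.

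In Kupffer cells, monocytes and T cells most members stood at a low share of their LSEC level. For the 8 members other than Lamb1 and Cd34, Kupffer cells (the resident macrophages) had a median of 6.39% of the LSEC level in S (from 5.36% for Lama4 to 11% for Plvap), 15.9% in HFD_sed (13.6% to 22.3%) and 15.9% in HFD_EXE (10.0% to 21.2%). Monocytes had a median of 14.3% in S, 1.44% in HFD_sed and 10.1% in HFD_EXE, and T cells 4.94%, 3.63% and 5.85%. In Kupffer cells Lama4 had the lowest and Plvap the highest of the 8 proportions in each library. The lower level of Col13a1 in HFD_sed was also seen there, at 9.01 CPM against 33.4 CPM in S. Where these UMIs came from was not tested.

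The mesenchymal cluster, of 65, 6 and 23 cells, held several members at levels near or above those of LSECs. The median over the same 8 members was 50.7% of the LSEC level in S, 36.8% in HFD_sed and 54.1% in HFD_EXE. Sparc had 1101 CPM in S and 1751 in HFD_EXE, or 113% (107 to 120) and 191% (174 to 210) of the LSEC level, and 875 CPM, or 52.3% (35.0 to 75.2), in the 6 cells of HFD_sed. Nid1 stood at 83.3% (72.1 to 95.9) in S and 96.3% (74.4 to 123) in HFD_EXE, while Cldn5 stood at 19.7% and 15.9%.

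Nid1 in B cells stood apart from the other members. It stood at 7.90% of the LSEC level in S (5.80 to 10.5), 10.7% in HFD_sed (8.62 to 13.2) and 11.8% in HFD_EXE (8.86 to 15.4). The medians of the 8 members in B cells were 2.23%, 2.48% and 2.42%. In CPM, Nid1 had 18.5, 30.5 and 31.2 in B cells. S was the lowest library, as in LSECs.

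**Figure D5:**
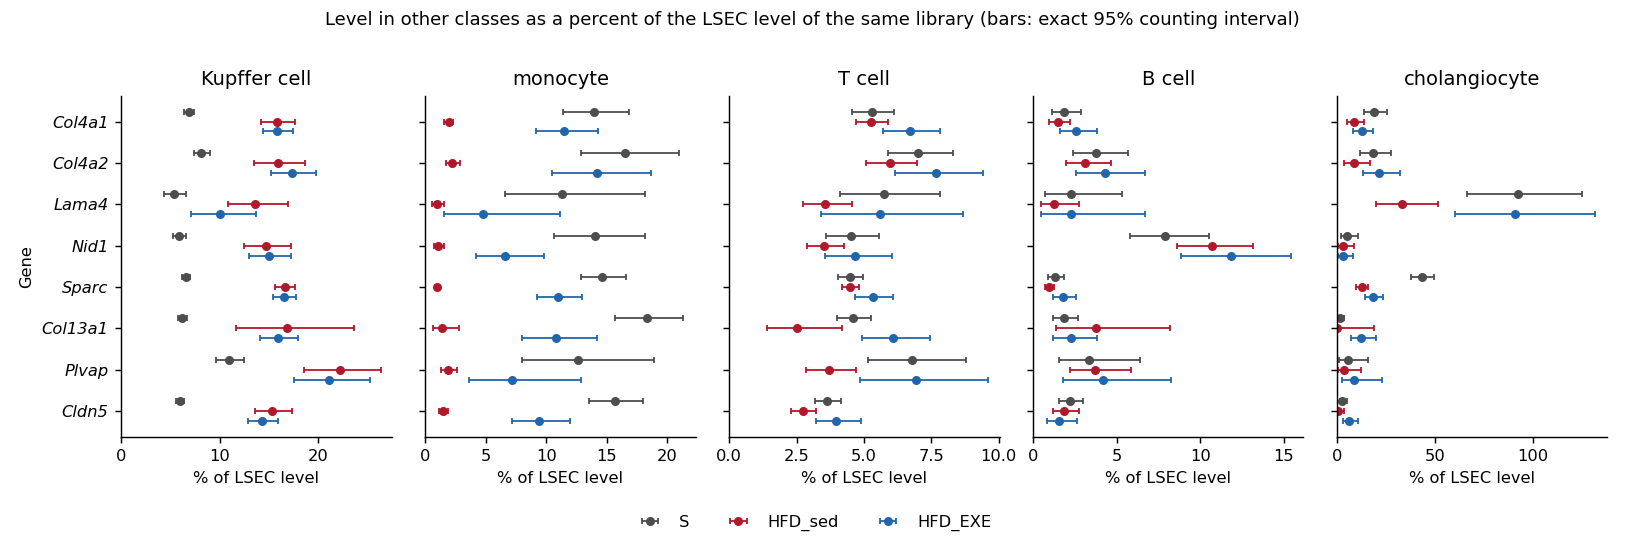
Level of 8 genes in 5 other cell classes as a percent of the LSEC level of the same library (horizontal axes, each panel on its own scale) in S (grey), HFD_sed (red) and HFD_EXE (blue); bars are exact 95% counting intervals. Kupffer cells of S lie near 6.39% for most genes, Nid1 stands apart in B cells (7.90% to 11.8%), and Lama4 in cholangiocytes reaches 92.3%, from 32 to 34 cells per library.

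Cholangiocytes, the cells of the bile ducts, held Lama4 and Sparc. Lama4 stood at 79.7, 52.3 and 68.7 CPM in S, HFD_sed and HFD_EXE, or 92.3%, 33.0% and 90.8% of the LSEC level, while Cldn5 and Nid1 reached at most 6.07% of it there. Sparc had 423, 209 and 169 CPM. These values rest on 32, 34 and 34 cells.

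Cd34 had sources outside the vessels. Basophils or mast cells had 139 CPM in S, 275 in HFD_sed and 349 in HFD_EXE, from 14, 15 and 12 cells. Conventional dendritic cells had 103 CPM in S, 42.1 in HFD_sed and 64.7 in HFD_EXE, from 116, 305 and 103 cells. The class of capsule or other macrophages had 72.8 CPM in S and 119 CPM in HFD_EXE but 4.80 CPM in HFD_sed, where the class had 406 cells against 57 and 84. In the mesenchymal cluster Cd34 had 170, 362 and 273 CPM. Conventional dendritic cells held 34.2% of all Cd34 UMIs of HFD_sed, more than the 22.7% in LSECs. Class size enters these shares, since such dendritic cells were 2.84% of kept cells in HFD_sed, 1.14% in S and 1.01% in HFD_EXE.

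Plvap was likewise not limited to endothelium, since the mesenchymal cluster had 642 CPM in S (594 to 692) and 585 CPM in HFD_EXE (496 to 686), above the vascular class. Its single UMI in the 6 cells of HFD_sed gave 30.2 CPM (0.764 to 168). The cluster held 13.9% of all Plvap UMIs of S and 16.9% of those of Cd34.

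Genes with the most similar pattern were sought over 36 groups of cells (endothelial clusters and other classes, by library) among 7917 genes that reached 50 CPM, by Pearson's r of log2(CPM + 1). Groups of 1 library share its depth and free RNA, so r is a description. Col4a1 was closest to Hspg2, which encodes perlecan (r = 0.989), and to Myct1 (0.987), and Col4a2 to Robo4 (0.991) and Oit3 (0.990), which are endothelial genes. Lama4 was closest to Cyp4b1 (0.980) and Osmr (0.978), Nid1 to Mapk12 (0.980) and Rapgef3 (0.970), and Sparc to Gpr182 (0.985) and Pcdh17 (0.983). Cldn5 was closest to Clec4g (0.979) and Gpr182 (0.977), both LSEC markers. Col13a1 was closest to Slc26a10 (0.958) and Cyp26b1 (0.935), Plvap to Bgn (0.962) and Prelp (0.961), both matrix proteoglycan genes, and Cd34, with the weakest likeness, to Tbc1d4 (0.873) and Tlr3 (0.849). Lamb1 did not reach 50 CPM in any of these groups. They left out the mesenchymal cluster, in which Lamb1, Plvap and Cd34 were high, and the low-UMI endothelial cluster. Other classes with under 100 cells in a library, such as cholangiocytes, were also left out for that library.

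Other basement membrane genes were looked at from a list of 24, of which 15 could be measured in LSECs for HFD_sed over S. Of these 2 were higher (13.3%) and 7 lower (46.7%), against 16.3% and 12.3% of all genes. Their median log2 ratio was -0.31, against 0.07 for all genes. The α5 laminin chain gene Lama5 had 11.2 CPM in HFD_sed and 39.5 in S, and Lama3 had 2.51 and 8.75 CPM. Col4a3, of the α3 chain of type IV collagen, had 4.41 and 11.5 CPM. The perlecan gene Hspg2 was not called, at 547 and 511 CPM. For HFD_EXE over HFD_sed, 4 were higher (26.7%) and 1 lower (6.67%), against 11.5% and 14.2% of all genes. Lama5 was at 33.7 CPM in HFD_EXE.

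Genes that fold, modify and secrete collagen numbered 16 measured of 18, with 5 higher in HFD_sed than in S and 2 lower (median log2 ratio 0.35). Of all genes 16.3% were higher and 12.3% lower, so the share lower in this list was near that of all genes. P4ha1, a catalytic subunit of prolyl 4-hydroxylase, had 96.3 CPM against 43.1 CPM, and Plod2, a lysyl hydroxylase, 10.3 CPM against 0.832 CPM. P4ha2, the sister gene of P4ha1, went the other way with 9.09 against 26.7 CPM. In HFD_EXE over HFD_sed 1 was higher (6.25%, against 11.5% of all genes) and 3 lower (18.75%, against 14.2%), P4ha1 among the latter at 54.7 CPM.

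Matrix proteases and their inhibitors had 8 of 14 measured genes higher in HFD_sed than in S and 2 lower (median log2 ratio 1.43). These are 57.1% and 14.3%, against 16.3% and 12.3% of all genes. Adamts1, a secreted protease of proteoglycans, had 589 CPM in HFD_sed, 150 in S and 945 in HFD_EXE, and Adamts9 58.2, 7.55 and 77.7 CPM. HFD_EXE thus had the highest level of both genes. Over the list, HFD_EXE over S had 7 of 14 higher and 0 lower. Timp2, an inhibitor, had 3.93 CPM in HFD_sed, 24.7 in S and 57.8 in HFD_EXE.

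Of the matrix receptor genes, 1 of 16 measured was higher in HFD_sed than in S (6.25%, against 16.3% of all genes). Lower were 3 (18.75%, against 12.3%). Bcam, a receptor of the α5 laminin chain, had 6.1 CPM in HFD_sed, 49.4 in S and 32.4 in HFD_EXE, in the same order as Lama5. The junction and caveola genes, the neighbours of Cldn5 in function, had 1 of 16 higher and 2 lower, against 16.3% and 12.3% of all genes. Jam2, a junctional adhesion molecule, had 116 CPM in HFD_sed, 390 in S and 389 in HFD_EXE. Cavin1, of the caveola coat, had 195 CPM in HFD_sed against 103 in S.

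The list of capillary and activated endothelium genes, without the members, had 13 of 16 measured genes higher in HFD_sed than in S and 1 lower, Ly6c1. These are 81.25% and 6.25%, against 16.3% and 12.3% of all genes. The median log2 ratio of the list was 2.08. Esm1, a secreted proteoglycan of tip cells, had 532 against 7.65 CPM, Edn1, the gene of endothelin 1, 104 against 1.96 CPM, and Angpt2, an antagonist of the TIE2 receptor, 164 against 14.3 CPM. In HFD_EXE over HFD_sed 12 of 16 were lower and 2 higher, against 14.2% and 11.5% of all genes. Cd34, which is a member and not in this list, lay below S in the library in which most genes of the list lay above it. Of 14 sinusoidal identity genes 0 were higher in HFD_sed than in S and 2 lower, with a median of -0.23. The share lower, 14.3%, was near the 12.3% of all genes, while 16.3% of all genes were higher. The lists were drawn up with earlier results of these data known, so their counts are descriptions.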

How the data were processed

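Liver non-parenchymal cells were profiled by 10x Genomics 3′ single-cell RNA sequencing (V3 kit), per the labels' protocols. The matrices hold whole-number UMI counts per gene and barcode as the authors deposited them, and Cell Ranger 6.1.2 and GRCm39 are named in the submitters' processing notes. Barcodes below 500 UMIs or 300 genes, or with 15% or more mitochondrial UMIs, were dropped, as were 403, 328 and 295 predicted doublets of S, HFD_sed and HFD_EXE (score over 0.219, a threshold set after seeing the scores). Pairs of these libraries shared 30 to 43 barcodes. Counts were clustered with Scanpy 1.11.5 and leidenalg 0.10.2 (2000 variable genes without the 10 members, 30 components, 15 neighbours, resolution 1.0), and clusters were named from marker lists.

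Class sums of counts gave CPM with exact Poisson intervals and ratios with exact conditional binomial intervals (SciPy 1.17.1), a procedure tested on simulated data. No test was run. Detection was also read after thinning each cell to 2000 UMIs. All 10 members are named. From each list of other genes at most 4 per comparison were eligible, those whose ratio interval lay farthest from 1, and for each member the 2 genes with the highest Pearson's r; Ly6c1 and the markers of the class and Kit checks were named after their values were seen. Members, markers and lists were chosen with earlier results of these data known. Alternatives covered resolution, class borders, scaling (edgeR 4.0.16 for TMM, and the DESeq2 1.42.0 median of ratios), free RNA, doublets, depth, cell weighting and the UMI minimum. Of these, 4 were chosen after seeing the data: adding the low-UMI endothelial cluster to LSECs, leaving out LSEC clusters with a median under 5000 UMIs, and taking LSECs with or without a Kit UMI.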

Additional observations from a re-analysis of the deposited data

How the results depend on the processing

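No paired analysis was possible because the libraries compared share no replicate number and each group has 1 library; for the same reason none could be left out. Of 794 member ratios under the alternatives, 650 stayed within the counting interval of the value reported, 142 moved beyond it and 2 reversed. The 2 changes of the UMI minimum leave every ratio as it is, so their values are among the 650 by construction. The 2 that reversed were in the vascular class with a marker gate in place of clusters, for HFD_sed over S: the log2 ratio of Cd34 was 0.70 in place of -1.55 and that of Cldn5 1.57 in place of -1.16, on 13 to 36 cells. In LSECs the calls of Sparc and Col13a1 in both comparisons with HFD_sed, and of Cd34 for HFD_EXE over HFD_sed, were kept in 17 of 17 alternatives. Of these, the 2 changes of the UMI minimum could not alter them.

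Of 182 counts of called members, 22 moved by over 1.5 times. In LSECs the count lower for HFD_EXE over S was 1, and it was 2 at resolution 2.0, with TMM or median-of-ratios scaling and with the low-UMI endothelial cluster added (chosen after seeing the data), and 3 with the marker gate; with no minimum of UMIs the count higher was 1 in place of 0. In the vascular class the count higher for HFD_sed over S was 1, and it was 3 at resolutions 0.5 and 2.0 and with both endothelial classes together, and 2 with the marker gate and with doublets kept; the count lower was 3, and 1 with a minimum of 200 UMIs. For HFD_EXE over HFD_sed the count lower was 3, and 1 with the marker gate. For HFD_EXE over S the count higher was 0, and 2 with the marker gate; the count lower was 1, and 0 at resolution 0.5, with TMM, with the mean of per-cell CPM and with a minimum of 200 UMIs, and 2 with members allowed in clustering, the marker gate, doublets kept and no minimum of UMIs. The cause of these shifts was not tested, apart from the minimum, which changes the members that count.

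The number of members highest in an endothelial class, among classes with at least 100 cells in each library, was 8 of 10, and 9 both at resolution 2.0 and with the members allowed in clustering. The added member was Lamb1 at resolution 2.0, at only 0.728 CPM, and Cd34 with the members allowed. The minimum of cells left out the mesenchymal cluster. Its mean levels of Lamb1, Cd34, Plvap and Sparc, over S and HFD_EXE, were above those of both endothelial classes. The depth of the vascular class (864918 to 1648300 UMIs) limits Cd34 and Col13a1, which had 14 and 7 UMIs in HFD_sed.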
